A study of Mus musculus with 2 samples.

Results

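The scavenger receptors described here are 9 of the 32285 genes in the count matrices: Msr1, Marco, Scarb1, Cd68, Olr1, Mrc1, Stab1, Cd163 and Lyve1. They were chosen by gene symbol, as cell surface or endosomal receptors for modified lipoproteins and other ligands to be cleared. The study profiled single aortic cells from mice that had been fed a Western diet, after CD31 microbead enrichment, on the 10x Genomics platform. One library, WT, came from ApoE-/- mice on the C57BL/6 background. The other, EC-iCD45KO, came from the same ApoE-/- background with a tamoxifen-inducible, endothelial-cell-specific deletion of CD45, the leukocyte phosphatase encoded by Ptprc. Both groups therefore lacked apolipoprotein E and received the same diet. The promoter that drives the Cre recombinase, the age and sex of the mice, the number of mice per library and whether the WT mice received tamoxifen are not given in the sources used here. With 1 library per group there is no replicate check. Every difference below is between these libraries, cannot be told apart from a difference between the animals or preparations behind them, and carries no p-value.

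Scavenger receptors bind oxidised or acetylated lipoproteins, dying cells, glycans and plasma proteins, and carry them into the cell. Unlike the LDL receptor, those that take up modified lipoproteins are not shut down by the cholesterol they bring in, which is why macrophages of the artery wall can become foam cells. The family is defined by what its members bind and not by descent, so its classes differ in structure.

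Barcodes with fewer than 300 genes or with over 10% of UMIs from mitochondrial genes were dropped, as were the 10% with the highest doublet scores, which left 35634 WT and 26132 EC-iCD45KO cells. UMIs are unique molecular identifiers, each standing for 1 captured transcript, and levels are given as counts per 1000000 UMIs (CPM), summed over the cells of a class. The libraries held 92058043 and 88967918 UMIs, and the median barcode had 1548 and 1405. Cell classes were rebuilt by clustering without the 9 genes and named from marker lists. A class is called by its markers with the ending -like. Macrophage-like cells numbered 3494 in WT and 9462 in EC-iCD45KO, EC-like cells 3246 and 3846, and lymphatic EC-like cells 241 and 228. The macrophage-like class also takes in clusters that scored highest for a monocyte list, of 374 and 1568 cells and of 589 and 240 cells. The largest macrophage-like cluster differed between the libraries: it was a shallow cluster led by Apoc2 and Lyz1, with a median of 809 UMIs, in EC-iCD45KO (3296 cells, and 555 in WT), and a cluster led by Zmynd15 and Fcrls in WT (850 cells, and 1036 in EC-iCD45KO). A subcluster of 588 WT and 1481 EC-iCD45KO macrophage-like cells is called Negr1/Retnla after its leading genes. It scored highest for a list of 5 MHC class II genes, but its 10 leading genes held none of them and 1 gene of the resident macrophage list, Ccl8, so it was given no subtype name. The 12 genes of the endothelial list were all at 5 CPM or more in EC-like cells of both libraries, with a summed level of 5071 and 5966 CPM, against 130 and 141 CPM in macrophage-like cells. Macrophage transcripts were present in every class: in EC-like cells all 13 genes of the macrophage list reached 5 CPM, with sums of 6165 CPM in WT and 9509 CPM in EC-iCD45KO, and in macrophage-like cells the sums were 35713 and 39448 CPM. The libraries shared 340 cell barcodes, 0.853% of those in WT and 1.12% of those in EC-iCD45KO, of which 253 were among the kept cells. The targeted gene Ptprc stood at 319 CPM in WT and 116 CPM in EC-iCD45KO EC-like cells, a log2 ratio of -1.46. It was also lower in SMC-like cells (253 and 91.5 CPM) and macrophage-like cells (504 and 284 CPM), and higher in Neutrophil-like cells (901 and 1714 CPM). Which exons the deletion removes is not given in the sources used here, so these counts do not show how complete it was.

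Most of the 9 receptors had 1 class in which they stood clear of the rest. Msr1, Cd68 and Mrc1 were highest in macrophage-like cells of both libraries, Scarb1 in EC-like cells, Lyve1 and Stab1 in lymphatic EC-like cells and Olr1 in Neutrophil-like cells. Cd163 was low throughout, with most of its macrophage UMIs in 1 subset, and Marco was nearly absent. Between the libraries, none of the 5 receptors that reached a mean of 5 CPM in macrophage-like cells differed by 2-fold or more (Msr1, Scarb1, Cd68, Mrc1 and Stab1). Among all 9539 genes tested in these cells, 0.734% were at least 2-fold higher in EC-iCD45KO and 1.90% at least 2-fold lower. The receptors had a median log2 ratio of 0.06, and all tested genes -0.04. In EC-like cells the same 5 receptors reached the minimum, 1 of them (Msr1) was at least 2-fold higher in EC-iCD45KO and 0 were lower. Of the 10944 genes tested there, 1.78% were 2-fold higher and 3.58% were 2-fold lower. The median log2 ratio of the 5 was 0.50, against -0.00 for all genes.

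**Figure D1:**
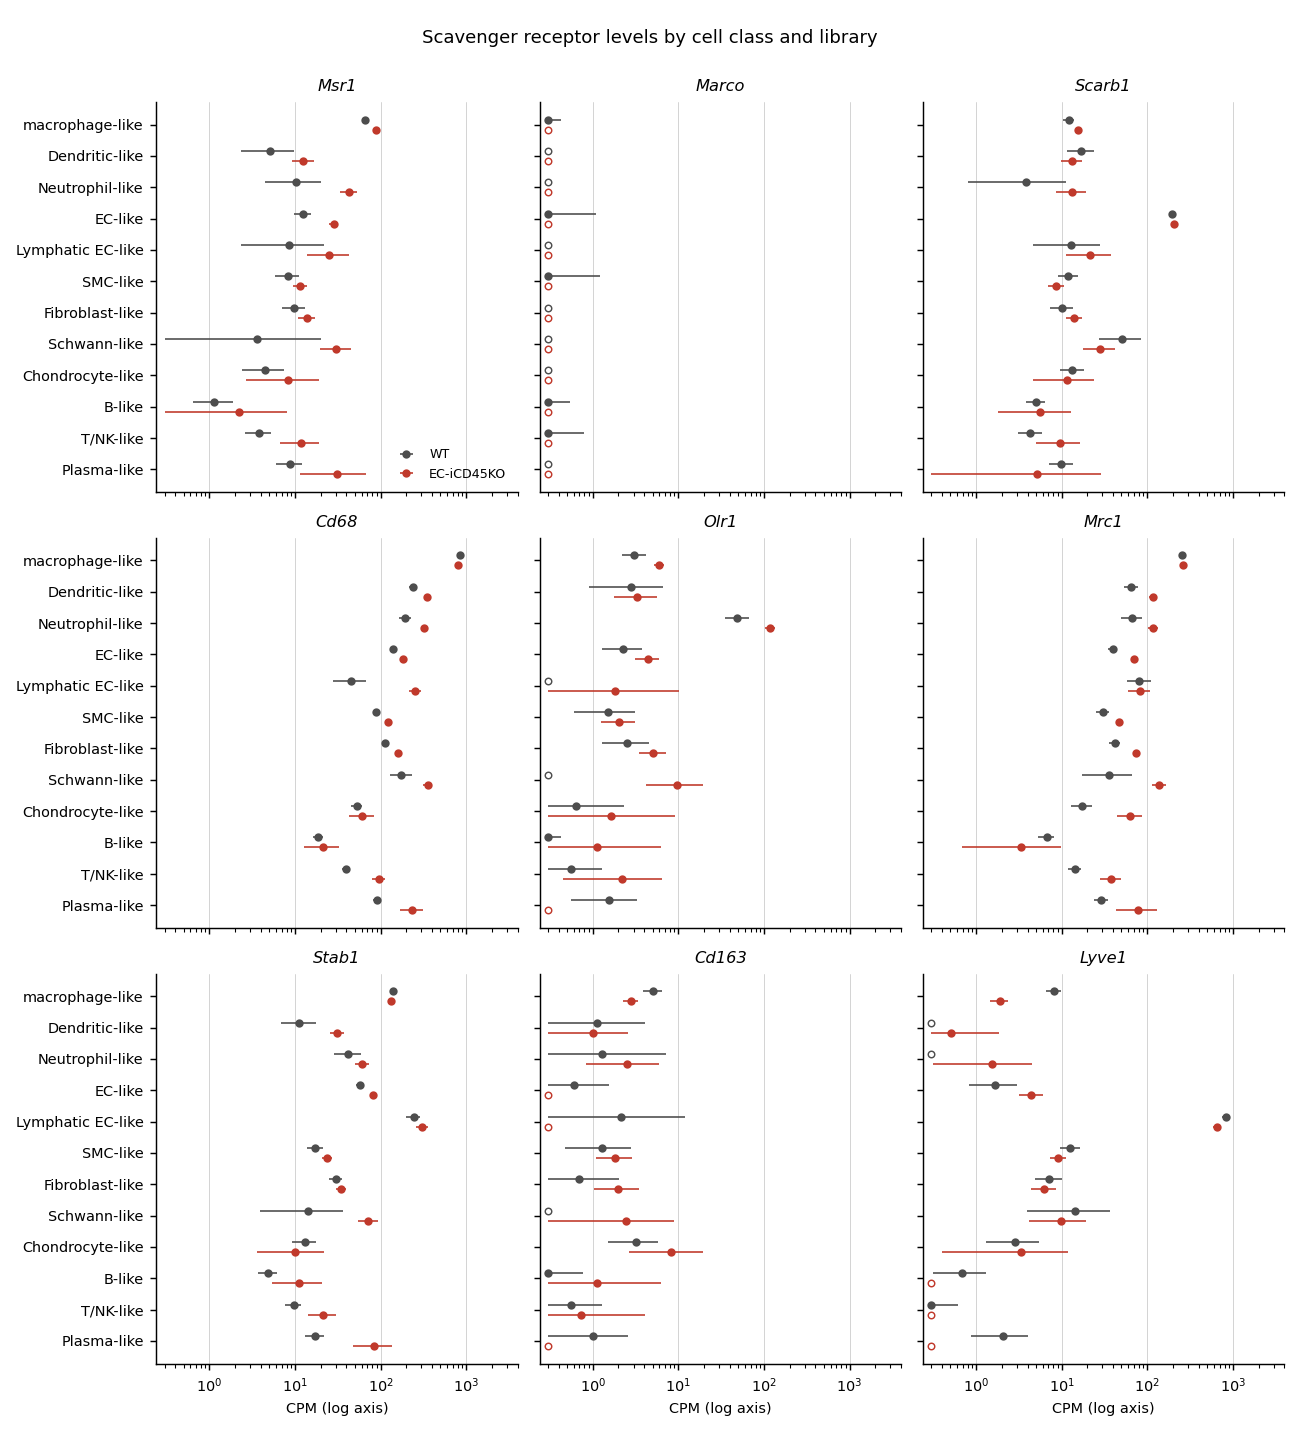
Level of each scavenger receptor in CPM, on a log axis, in each named cell class of the WT library (dark) and the EC-iCD45KO library (red). Points are levels of summed UMIs and bars are exact 95% Poisson intervals (counting error only); open circles at the left edge mark 0 UMIs, and levels under 0.3 CPM are drawn at that edge. Scarb1 stands apart in EC-like cells (193 and 206 CPM), Lyve1 in lymphatic EC-like cells (822 and 651 CPM) and Olr1 in Neutrophil-like cells (49.1 and 118 CPM).

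Msr1 (chr8:39581685-39642673, minus strand, GRCm38) encodes the class A scavenger receptor SR-A1, a trimeric receptor through which macrophages take up acetylated and oxidised LDL. In macrophage-like cells it was at 65.3 CPM in WT (95% interval 61.0 to 69.9) and 89.6 CPM in EC-iCD45KO (86.6 to 92.8), for a log2 ratio of 0.46 (95% interval 0.35 to 0.57). These intervals, like all below, are exact and cover counting error only, so they say nothing of how 2 libraries of 1 group would differ. After each cell was thinned to 1000 UMIs, 5.84% of WT and 7.79% of EC-iCD45KO macrophage-like cells held an Msr1 UMI (18.0% and 20.5% without thinning, at median depths of 3202 and 2064 UMIs). In B-like cells, which should lack the gene, the thinned shares were 0.130% and 0.331%, at median depths of 2005 and 2559 UMIs. EC-iCD45KO had only 329 B-like cells. This class had the lowest Msr1 level of the named classes, 1.14 and 2.23 CPM. SMC-like cells had 8.21 and 11.6 CPM, and Fibroblast-like cells 9.72 and 13.7 CPM. B-like cells were also lowest in WT for Cd68, Mrc1 and Stab1, so their shares below are a low baseline. Thinning left out 447 and 2924 macrophage-like cells with fewer than 1000 UMIs. Within the class, monocyte-derived macrophage-like cells had 109 CPM in WT and 144 CPM in EC-iCD45KO. A small interferon macrophage-like subtype of 276 WT and 22 EC-iCD45KO cells had 114 and 72.1 CPM, the latter from 8 UMIs. Foamy Trem2 macrophage-like cells had 80.4 and 104 CPM. The Negr1/Retnla subcluster had 52.4 and 50.6 CPM and showed no difference between the libraries beyond counting error. The shallow subcluster led by Ccdc152 and Ccl24, of 565 and 3128 cells with a median of 749 UMIs, had 36.6 and 79.0 CPM, for a log2 ratio of 1.11 (95% interval 0.44 to 1.85).

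Msr1 was also found in other classes. EC-like cells had 12.4 CPM in WT and 28.3 CPM in EC-iCD45KO, for a log2 ratio of 1.19 (95% interval 0.83 to 1.57). It was present in venous (8.83 and 26.4 CPM) and capillary EC-like cells (14.4 and 27.9 CPM), while in arterial EC-like cells (14.3 and 20.8 CPM) the log2 ratio was 0.54 and its interval, -0.32 to 1.41, included 0. With averaged single-cell CPM it was 1.5 in arterial cells, past 2-fold, with 38.1 CPM in EC-iCD45KO. Venous EC-like cells pool a subcluster of 602 WT and 470 EC-iCD45KO cells and one led by Csf3 and Sele of 70 and 215. The part of this mix in the venous levels was not tested. Neutrophil-like cells also held more Msr1 in EC-iCD45KO, 42.6 against 10.3 CPM, and so did T/NK-like cells, 11.7 against 3.76 CPM. The macrophage genes C1qa, C1qb and C1qc moved with it: their summed level in EC-like cells was 2464 CPM in WT and 3151 CPM in EC-iCD45KO, and in T/NK-like cells 717 and 1850 CPM. Per UMI of these C1q genes, EC-like cells held 1.14 times (0.91 to 1.42) as much Msr1 as macrophage-like cells of the same library in WT and 1.37 times (1.21 to 1.55) as much in EC-iCD45KO. The low-depth EC-like subcluster led by Jchain and Igha, whose leading genes also hold the macrophage genes Retnla and Ccl8, had 19.0 and 61.5 CPM. Without that subcluster the log2 ratio in EC-like cells was 0.97, below 2-fold, so the one call in the pooled EC-like class ended. The part of macrophage RNA in the endothelial Msr1 counts was not tested beyond these ratios.

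Marco (chr1:120474538-120505024, minus strand), the other class A receptor of the group and a bacterial and particle receptor of some tissue macrophages, was close to absent. The WT library held 10 Marco UMIs in all kept cells and the EC-iCD45KO library held 0. No class reached 1 CPM in WT, so no ratio is given.

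Scarb1 (chr5:125277087-125341094, minus strand), the class B receptor SR-B1 that exchanges cholesterol with HDL and carries LDL across endothelium, was highest in EC-like cells. EC-like cells had 193 CPM in WT (182 to 204) and 206 CPM in EC-iCD45KO (197 to 215), and held 60.5% and 62.0% of all Scarb1 UMIs. The log2 ratio was 0.10 (-0.01 to 0.20). In each library the next class was far lower: Schwann-like cells had 50.1 and 28.0 CPM, and macrophage-like cells 12.1 and 15.5 CPM. After thinning, 15.0% of WT and 14.5% of EC-iCD45KO EC-like cells held a Scarb1 UMI (21.1% and 22.3% unthinned, at median depths of 1314 and 1247 UMIs), against 0.446% and 0.331% of the deeper B-like cells. Per C1q UMI, EC-like cells held 96.1 and 57.6 times as much Scarb1 as macrophage-like cells. Cells left unnamed held 15.9% and 9.07% of all Scarb1 UMIs. Among them, a cluster of 701 WT and 470 EC-iCD45KO cells scored highest for the endothelial list (3.66). Its leading genes included Gja4 and Gja5 of the arterial list. It is part of no EC-like or arterial EC-like value given here.

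Among 3 named subtypes of blood vessel endothelium Scarb1 had the same order in both libraries. Arterial EC-like cells had the least of these 3, 94.3 CPM in WT and 104 CPM in EC-iCD45KO, and 32.1 and 40.6 CPM when subtypes were clustered more finely (Leiden resolution 1). Venous EC-like cells had 192 and 210 CPM, and capillary EC-like cells 320 and 359 CPM. The tip or sprouting EC-like cells, a small set of 120 and 262 cells, had 330 CPM in WT and 237 CPM in EC-iCD45KO. The lymphatic EC-like subtype was lower than all of these, with 19.0 and 24.2 CPM from 9 and 13 UMIs. The tip or sprouting cells were level with capillary cells in WT and below them in EC-iCD45KO, with a log2 ratio of -0.48 (-0.73 to -0.23) between the libraries. They pool subclusters of 51 WT and 108 EC-iCD45KO, 61 and 98, and 8 and 56 cells. The part of this mix in the ratio was not tested. The nearest match to the Scarb1 pattern over 40 class and subtype values was Adgrg1, with a Pearson correlation of 0.916. Cd300lg and Kitl followed, all highest in capillary EC-like cells.

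**Figure D2:**
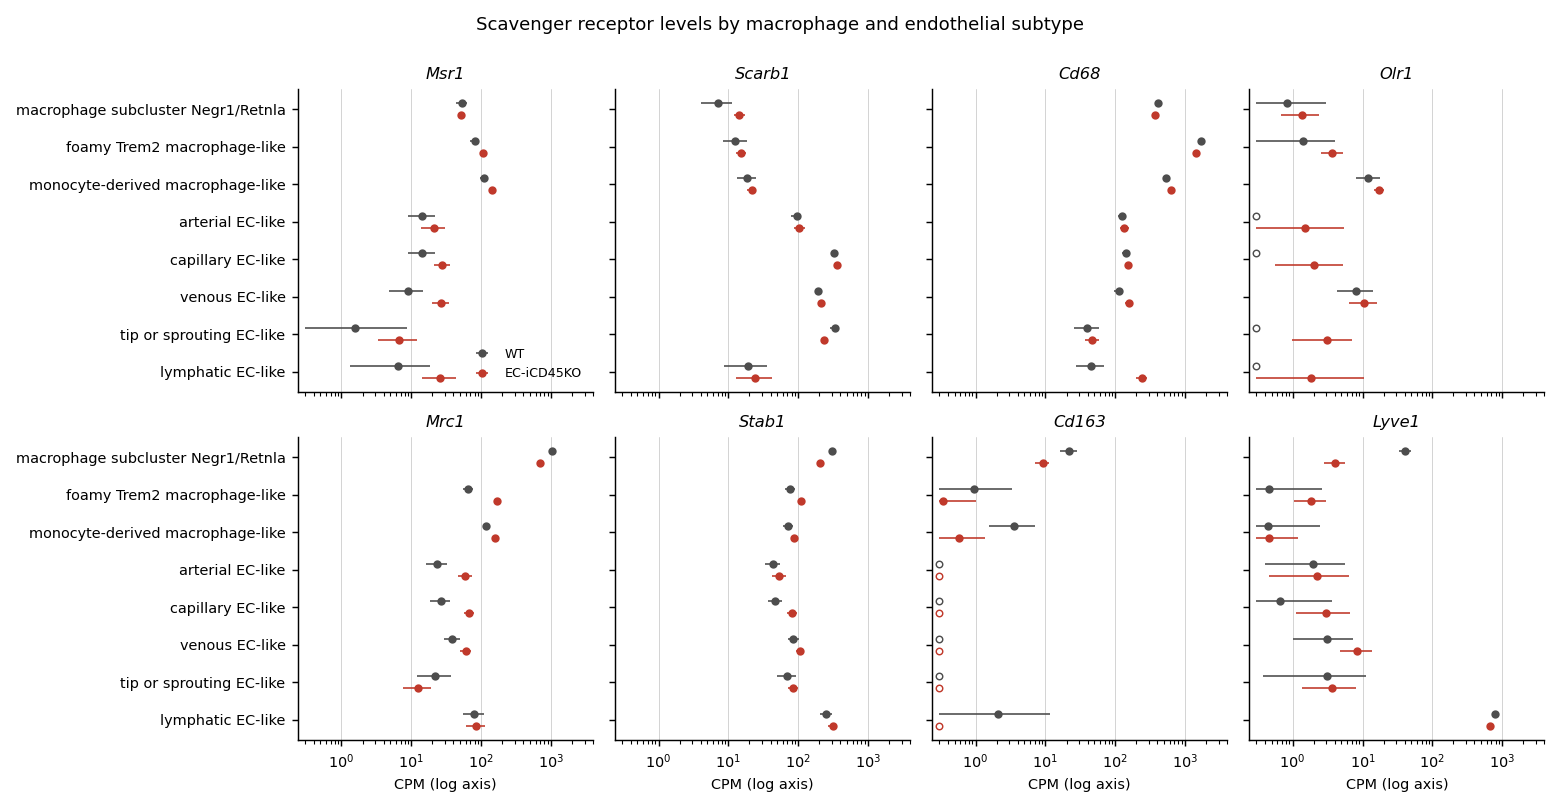
Level of each scavenger receptor except Marco in CPM, on a log axis, in macrophage-like and endothelial subtypes, and in the Negr1/Retnla macrophage subcluster. Values are from the WT (dark) and EC-iCD45KO (red) libraries, with exact 95% Poisson intervals. Open circles mark 0 UMIs and levels under 0.3 CPM are drawn at the left edge. Mrc1, Stab1, Cd163 and Lyve1 are lower in EC-iCD45KO in the Negr1/Retnla subcluster, whereas Mrc1 is higher there in the foamy Trem2 subset (166 against 64.5 CPM).

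Cd68 (chr11:69664213-69666153, minus strand), the class D receptor macrosialin that sits mainly in late endosomes and lysosomes, was nearly level between the libraries. Macrophage-like cells had 838 CPM in WT (823 to 854) and 807 CPM in EC-iCD45KO (798 to 816), a log2 ratio of -0.06 that was 0.00 with TMM scaling. The thinned shares of these cells with a Cd68 UMI were 44.7% and 44.9% (68.7% and 62.6% unthinned), against 1.84% and 2.32% of B-like cells. Foamy Trem2 macrophage-like cells, which carry the genes of lipid-loaded macrophages, had the highest level, 1662 CPM in WT and 1420 CPM in EC-iCD45KO. Monocyte-derived macrophage-like cells had 523 and 632 CPM and the Negr1/Retnla subcluster 410 and 375 CPM. At subtype resolution 1 these were 322 and 402 CPM, and 398 and 353 CPM, so their order then differed between the libraries. EC-like cells had 139 and 182 CPM, which was 1.0 and 0.98 times the macrophage ratio to C1q. Dendritic-like cells had 240 and 350 CPM, 3.58 and 2.30 times that ratio, and lymphatic EC-like cells stood at 0.64 and 1.34 times it. In lymphatic EC-like cells Cd68 was at 44.7 CPM in WT and 255 CPM in EC-iCD45KO, for a log2 ratio of 2.51 (95% interval 1.84 to 3.25), and 1.84 with doublets kept in. The macrophage list moved with it in those cells, from a sum of 3250 CPM in WT to 10660 CPM in EC-iCD45KO, with all 13 genes at 5 CPM or more in each. The part of those transcripts in the difference was not tested.

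Olr1 (chr6:129485244-129507165, minus strand) encodes LOX-1, the class E receptor first described as an endothelial receptor for oxidised LDL. Of the cell classes here, Neutrophil-like cells held the most, with 49.1 CPM in WT (34.8 to 67.4) and 118 CPM in EC-iCD45KO (103 to 134), for a log2 ratio of 1.26 (95% interval 0.76 to 1.80). These cells held 20.0% and 35.8% of all Olr1 UMIs. A UMI was seen after thinning in 2.71% of WT and 6.04% of EC-iCD45KO Neutrophil-like cells (3.54% and 7.53% unthinned, median depths 1074 and 1232 UMIs), and in 0.00% of B-like cells of either library. The WT value rests on 38 UMIs in 18 cells, of which the 5 highest cells held 22. The Neutrophil list itself was at similar sums there, 20345 and 22504 CPM. EC-like cells had only 2.27 CPM in WT and 4.40 CPM in EC-iCD45KO, below the minimum for a comparison. Of the endothelial subtypes, venous EC-like cells had 8.20 and 10.4 CPM, with intervals that overlap. The Neutrophil list was detected in these venous cells too, at sums of 36.6 and 149 CPM, and its part in their Olr1 counts was not tested. Monocyte-derived macrophage-like cells had 12.1 and 17.1 CPM, and all macrophage-like cells together 3.05 and 6.02 CPM.

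Mrc1 (chr2:14229392-14332057, plus strand, with the miRNA gene Mir511 inside it) encodes the mannose receptor CD206, a C-type lectin that clears glycoproteins and collagen fragments and marks resident and alternatively activated macrophages. Over all macrophage-like cells it was nearly equal in the libraries, with 254 CPM in WT (245 to 263) and 264 CPM in EC-iCD45KO (259 to 270). The thinned share of cells with a UMI was 14.1% in WT and 19.6% in EC-iCD45KO (24.6% and 33.2% unthinned), against 0.595% and 0.00% of B-like cells. Its subsets differed in opposite directions. In the Negr1/Retnla subcluster, where Mrc1 was highest, it was at 1031 CPM in WT (991 to 1073) and 692 CPM in EC-iCD45KO (674 to 711), for a log2 ratio of -0.58 (95% interval -0.64 to -0.51). In foamy Trem2 macrophage-like cells it was at 64.5 CPM in WT (54.2 to 76.2) and 166 CPM in EC-iCD45KO (158 to 175), for a log2 ratio of 1.36 (95% interval 1.11 to 1.63). Monocyte-derived cells had 118 and 156 CPM. The library with more Mrc1 in the Negr1/Retnla subcluster had less of it in the foamy and monocyte-derived subtypes.

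In the foamy Trem2 subset 1 of 5 tested receptors (Mrc1) was at least 2-fold higher in EC-iCD45KO and 0 were lower, where 2.02% of the 9151 tested genes were higher and 2.32% lower. The 10 genes of the resident macrophage list, none of them a receptor described here, were mixed in these cells. Of the 9 tested, 2 were at least 2-fold higher in EC-iCD45KO and 2 at least 2-fold lower. Ccl8 was at 155 CPM in WT and 413 CPM in EC-iCD45KO, and F13a1 at 12.1 and 34.9 CPM. Folr2 was at 434 and 186 CPM, and Vsig4 at 15.4 and 0.918 CPM. The part of RNA or cells of the Negr1/Retnla kind in the foamy clusters was not tested.

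Endothelial Mrc1 was low. EC-like cells had 39.4 CPM in WT and 69.3 CPM in EC-iCD45KO, 0.93 and 1.14 times the macrophage ratio to C1q. Capillary (26.2 and 66.9 CPM) and arterial EC-like cells (23.4 and 58.6 CPM) were higher in EC-iCD45KO, with log2 ratios of 1.35 and 1.33. At subtype resolution 1 arterial EC-like cells had 29.3 and 90.3 CPM. Other receptors of macrophages differed too in capillary cells, Msr1 with a log2 ratio of 0.95 (0.22 to 1.74; 1.19 at subtype resolution 1) and Stab1 with 0.81 (0.40 to 1.24), while Cd68 was at 143 and 152 CPM there and 125 and 134 CPM in arterial cells. The summed C1q genes were at 2729 and 2854 CPM in capillary and 2008 and 2457 CPM in arterial cells, and the macrophage list at 6605 and 7891 CPM and at 5835 and 7510 CPM. Per C1q UMI, Mrc1 was at 0.56 and 1.21 times the macrophage ratio in capillary cells and 0.68 and 1.23 times in arterial cells. The part of macrophage RNA in these differences was not tested beyond these ratios. Lymphatic EC-like cells had 80.9 and 81.4 CPM, which was 3.81 times the macrophage ratio in WT and 1.30 times in EC-iCD45KO. The Negr1/Retnla subcluster itself stood at 3.43 and 2.19 times that ratio. Dendritic-like cells had 64.2 and 116 CPM, 3.16 and 2.33 times the ratio.

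Stab1 (chr14:31139013-31168641, minus strand, overlapping Nt5dc2 on the opposite strand) encodes stabilin-1, a large receptor of sinusoidal endothelium and tissue macrophages that takes up the matrix protein SPARC and modified lipoproteins. Its highest class was the lymphatic endothelium, with 243 CPM in WT (200 to 292) and 306 CPM in EC-iCD45KO (261 to 355), for a log2 ratio of 0.33 (95% interval -0.02 to 0.69) whose interval includes 0. A Stab1 UMI was found after thinning in 18.4% and 21.7% of lymphatic EC-like cells (28.2% and 32.5% unthinned, median depths 1212 and 1033 UMIs), against 0.558% and 0.662% of B-like cells. Per C1q UMI these cells held 20.9 and 9.79 times as much Stab1 as macrophage-like cells. Macrophage-like cells followed with 139 and 132 CPM. Within that class the Negr1/Retnla subcluster was highest in each library, at 306 CPM in WT (284 to 329) and 202 CPM in EC-iCD45KO (192 to 212), for a log2 ratio of -0.60 (95% interval -0.73 to -0.47). Foamy Trem2 cells had 76.6 and 108 CPM. Stab1 was at least 2-fold higher in EC-iCD45KO in some classes where it was low, among them Dendritic-like (11.3 and 31.1 CPM), T/NK-like (9.62 and 21.1 CPM) and Schwann-like cells (14.3 and 71.8 CPM, from 4 and 59 UMIs). The summed C1q genes were also higher there, at 1185 and 2576 CPM, 717 and 1850 CPM, and 2334 and 6772 CPM, and their part in the difference was not tested.

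Blood vessel endothelium held Stab1 beyond the macrophage ratio. EC-like cells had 57.9 CPM in WT (52.2 to 64.0) and 81.7 CPM in EC-iCD45KO (76.0 to 87.8), a log2 ratio of 0.50, and 2.50 times (2.26 to 2.77) and 2.68 times (2.49 to 2.88) as much per C1q UMI as macrophage-like cells. Of the named blood endothelial subtypes, venous EC-like cells had the highest CPM, 85.2 and 107. Capillary EC-like cells had 46.4 and 81.5 CPM, and arterial EC-like cells 42.9 and 53.4 CPM. Tip or sprouting EC-like cells had 68.6 and 83.8 CPM and the highest ratio to C1q of the blood endothelial subtypes, 11.7 and 9.67 times that of macrophage-like cells.

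Cd163 (chr6:124304656-124330527, plus strand) encodes the receptor that clears complexes of haemoglobin and haptoglobin. It was a rare transcript, with 5.04 CPM in WT and 2.79 CPM in EC-iCD45KO macrophage-like cells, below the minimum for a comparison. Chondrocyte-like cells had 3.18 CPM in WT and 8.27 CPM in EC-iCD45KO, the highest class there, from 10 and 5 UMIs. Among macrophage-like cells Cd163 was concentrated in the Negr1/Retnla subcluster. It was at 21.9 CPM there in WT (16.4 to 28.6, from 53 UMIs in 31 cells) and 9.09 CPM in EC-iCD45KO (7.14 to 11.4, from 74 UMIs in 44 cells). These were 53 of 66 and 74 of 102 macrophage UMIs; another, small subcluster led by Ccl8 and Cd209b had 0 in WT and 30.5 CPM in EC-iCD45KO, from 6 UMIs. The log2 ratio was -1.27 (-1.79 to -0.73), and -0.96, under 2-fold, when single-cell CPM values were averaged. Of these Cd163-positive cells, 31 of 31 in WT and 43 of 44 in EC-iCD45KO also held Mrc1, against 79.2% and 78.7% of the other cells of the subcluster.

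Lyve1 (chr7:110850607-110863239, minus strand) encodes a hyaluronan receptor of lymphatic endothelium that also marks a set of perivascular macrophages in arteries. Lymphatic EC-like cells had 822 CPM in WT (742 to 908) and 651 CPM in EC-iCD45KO (585 to 722), for a log2 ratio of -0.34 (95% interval -0.55 to -0.13), and they held 48.4% and 52.6% of all Lyve1 UMIs. The thinned share of these cells with a Lyve1 UMI ran the other way, 26.3% in WT (19.5 to 34.1) and 32.5% in EC-iCD45KO (24.2 to 41.7), with unthinned shares of 26.6% and 34.6%, so no order of the libraries is read from either. B-like cells had 0.0186% and 0.00%. With doublets kept in, the log2 ratio was -0.03.

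In macrophage-like cells Lyve1 was at 8.09 CPM in WT and 1.89 CPM in EC-iCD45KO, a mean that falls just under the minimum of 5 CPM. The Negr1/Retnla subcluster held 99 of 106 macrophage UMIs in WT and 33 of 69 in EC-iCD45KO, and its level was 40.8 CPM in WT and 4.05 CPM in EC-iCD45KO, for a log2 ratio of -3.33 (95% interval -3.95 to -2.75). The UMIs were clumped: 21 of 588 WT cells held them, and 5 cells held 63 of the 99. In EC-iCD45KO 15 of 1481 cells held them, and 5 cells held 23 of the 33. Because single cells carried up to 20 UMIs, the counting interval, which takes UMIs as independent, is too narrow here. The shares of cells with a UMI were 3.57% and 1.01% before thinning, and 2.05% (1.06 to 3.55) and 0.135% (0.0164 to 0.488) after it. Of the Lyve1-positive cells of the subcluster, 20 of 21 in WT and 14 of 15 in EC-iCD45KO also held Mrc1. So did 79.7% and 79.1% of its other cells, which were shallower (median 3762 and 5271 UMIs, against 4799 and 6683). Of the Lyve1-positive cells, 0 held a UMI of Prox1, the defining factor of lymphatic endothelium. They held 0.476 and 0.933 UMIs per cell of the 8-gene lymphatic list, and the rest of the subcluster 0.450 and 0.703. Lyve1-positive lymphatic EC-like cells held 85.2 and 102. Prox1 itself was seen in only 28 of 64 and 26 of 79 of the latter. Over all macrophage-like cells, the 28 Lyve1-positive cells of WT held 0.464 lymphatic-list UMIs per cell and the rest 0.429. The 43 of EC-iCD45KO held 2.84 per cell, against 0.711 in the rest, and 1 of them held Prox1. The part of lymphatic RNA in the macrophage Lyve1 counts, within the subcluster or outside it, was not tested.

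In the Negr1/Retnla subcluster 5 of the 7 receptors tested were lower in EC-iCD45KO beyond counting error, as were 14.3% of the 9654 genes tested. Of the 7, Cd163 and Lyve1 were at least 2-fold lower, where 2.32% of the genes were, and Scarb1 was at least 2-fold higher (7.01 and 14.4 CPM, a log2 ratio of 1.04, or 0.99 with 0.5 CPM added to each level), where 1.40% of genes were. Mrc1, Stab1 and Cd68 were lower by less than 2-fold, Cd68 the least of them with a log2 ratio of -0.13 (-0.23 to -0.02), and the interval of Msr1 included 0. The median log2 ratio of the 7 was -0.58, against -0.05 for all genes. The resident macrophage list moved with these receptors. It summed to 4942 CPM in WT and 1816 CPM in EC-iCD45KO, with 9 and 7 of 10 genes at 5 CPM or more, and 7 of the 8 tested genes were at least 2-fold lower. Folr2 was at 108 CPM in WT and 23.7 CPM in EC-iCD45KO. F13a1 was at 445 and 110 CPM, and the chemokine Ccl8 at 2977 and 975 CPM. Whether fewer resident cells within the cluster or less RNA per cell lay behind the lower sums was not tested.

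The 250 bases before the RefSeq gene start (GRCm38.p6) are shown for Mrc1, Stab1 and Cd163, which were lower in this subcluster, and for Cd68, which differed less there. RefSeq promoters were matched for 6 of the 9 genes. Each is written from 5′ to 3′ on the strand of its gene. Capitals mark exact matches, on either strand, to 3 motifs. The PU.1 core is GAGGAA, which reads TTCCTC where it lies on the opposite strand. The AP-1 site is TGANTCA, and the MAF half-site is TGCTGA. These matched stretches do not overlap one another.
Mrc1, chr2:14229164-14229413, plus strand: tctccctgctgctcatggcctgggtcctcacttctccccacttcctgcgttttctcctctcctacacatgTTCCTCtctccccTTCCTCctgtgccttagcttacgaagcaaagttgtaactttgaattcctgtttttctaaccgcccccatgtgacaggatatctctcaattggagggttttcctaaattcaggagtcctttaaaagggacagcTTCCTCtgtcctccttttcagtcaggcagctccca
Stab1, chr14:31168642-31168891, minus strand: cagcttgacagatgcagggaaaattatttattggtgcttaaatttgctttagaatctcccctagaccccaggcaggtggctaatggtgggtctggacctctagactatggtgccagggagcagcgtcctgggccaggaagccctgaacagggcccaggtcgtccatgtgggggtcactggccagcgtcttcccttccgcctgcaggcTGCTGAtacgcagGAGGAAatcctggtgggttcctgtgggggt
Cd163, chr6:124304401-124304650, plus strand: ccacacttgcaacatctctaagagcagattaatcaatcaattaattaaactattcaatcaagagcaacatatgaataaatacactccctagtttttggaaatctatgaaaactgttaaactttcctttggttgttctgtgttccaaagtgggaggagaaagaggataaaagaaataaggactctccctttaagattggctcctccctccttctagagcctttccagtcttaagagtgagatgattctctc
Cd68, chr11:69666171-69666420, minus strand: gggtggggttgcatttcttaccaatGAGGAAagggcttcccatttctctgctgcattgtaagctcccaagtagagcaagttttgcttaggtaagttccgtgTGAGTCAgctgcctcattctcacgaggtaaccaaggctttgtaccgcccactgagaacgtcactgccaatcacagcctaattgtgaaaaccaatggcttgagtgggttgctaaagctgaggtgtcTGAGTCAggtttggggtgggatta
The PU.1 core stood 3 times in the Mrc1 window, at 180, 167 and 35 bases before the start and always on the opposite strand. Stab1 held it once, at 30 bases before the start, beside a MAF half-site at 43 bases. Cd68 held it at 225 bases, with AP-1 sites at 149 and 24 bases before the start, and the Cd163 window held none of the 3 motifs. Of the 6 promoters matched, 5 held the PU.1 core, as did 23.3% of all 32851 windows of this length. The AP-1 site was in 6.75% of all windows and the MAF half-site in 16.1%. A match describes the letters only, and none of these data measured factor binding.

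Per C1q UMI, the receptors differed in how EC-like cells compared with macrophage-like cells. In EC-like cells Cd68 stood at the macrophage ratio, Mrc1 and Msr1 between 0.93 and 1.37 times it, and Stab1 and Scarb1 well above it in both libraries. Olr1 was at 4.47 and 3.17 times, from 15 and 40 UMIs. Lyve1 was at 1.24 times (0.62 to 2.21) in WT and 10.1 times (7.22 to 13.8) in EC-iCD45KO, from 11 and 40 UMIs. Its reference level also differed: macrophage-like cells had 8.09 and 1.89 CPM, and EC-like cells 1.66 and 4.40 CPM. These intervals ignore the error of the reference. The part of lymphatic RNA in the EC-like Lyve1 counts was not tested. Scarb1 and Stab1 were also the most abundant receptors in the EC-like cells that held no UMI of C1qa, C1qb, C1qc, Tyrobp, Fcer1g or Lyz2, which were 486 WT cells (15.0% of EC-like cells) and 225 EC-iCD45KO cells (5.85%). Scarb1 was at 268 and 303 CPM in those cells, and Stab1 at 46.2 and 84.0 CPM, for a log2 ratio of 0.86 (95% interval 0.21 to 1.51). Msr1 was down to 4 UMIs in each library, Mrc1 to 4 and 3 UMIs, and Cd68 to 15.1 and 27.3 CPM. Lyve1, Cd163 and Marco were at 0 there, which allows up to 3.01 CPM in WT and 6.30 CPM in EC-iCD45KO.

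**Figure D3:**
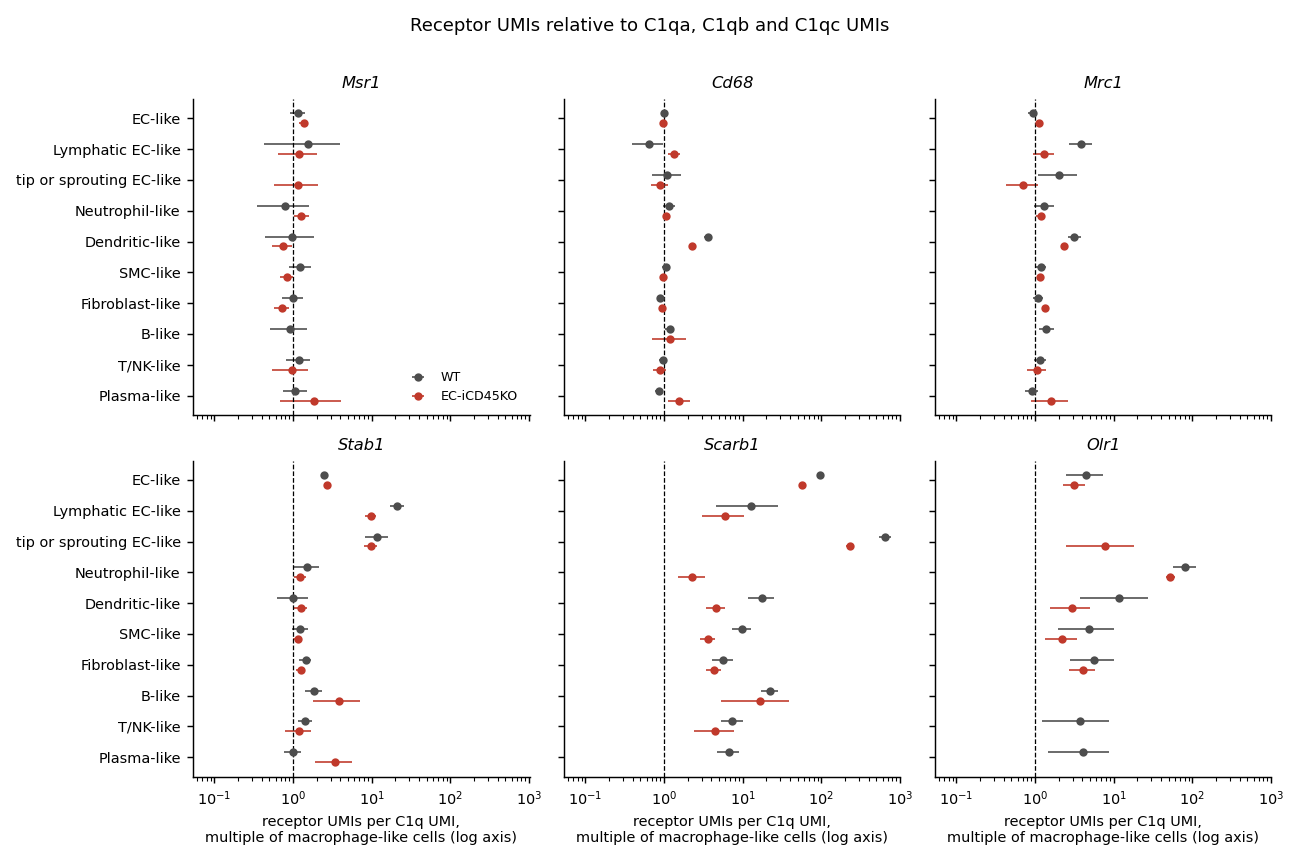
UMIs of Msr1, Cd68, Mrc1, Stab1, Scarb1 and Olr1 per C1q UMI in named classes and in tip or sprouting EC-like cells, for WT (dark) and EC-iCD45KO (red). Values are multiples of the same ratio in macrophage-like cells of that library (dashed line at 1), on a log axis. Schwann-like and Chondrocyte-like cells are not drawn. Bars are exact 95% intervals that ignore the error of the reference ratio, and points are shown for counts above 3 UMIs. In EC-like cells Cd68 lies on the line (1.0 and 0.98) and Scarb1 far to the right (96.1 and 57.6).

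Other scavenger receptors and partner genes were read in the same 2 classes. In macrophage-like cells 6 of 14 other receptors reached the minimum; Colec12, a class A relative, was at least 2-fold lower in EC-iCD45KO (20.2 and 8.51 CPM), where 1.90% of all tested genes were, 0 were higher, and their median log2 ratio was 0.10, against -0.04 for all genes. The chemokine and receptor Cxcl16 was at 699 and 679 CPM, and Lrp1 at 202 and 230 CPM. In EC-like cells 8 of 14 reached it and 0 passed 2-fold. The fatty acid and lipoprotein receptor Cd36 was at 1293 CPM in WT and 1212 CPM in EC-iCD45KO EC-like cells, and at 54.8 and 68.8 CPM in macrophage-like cells. Of 11 partner genes for haem, hyaluronan and cholesterol handling, 6 reached the minimum in each class. Hmox1, the haem oxygenase downstream of haemoglobin uptake, was at least 2-fold higher in EC-iCD45KO EC-like cells (34.0 and 70.2 CPM), where 1.78% of all tested genes were, and was at 128 and 187 CPM in macrophage-like cells. The cholesterol exporter Abca1 was at 303 and 396 CPM in macrophage-like cells and at 215 and 324 CPM in EC-like cells. Clec7a was not analysed here.

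**Figure D4:**
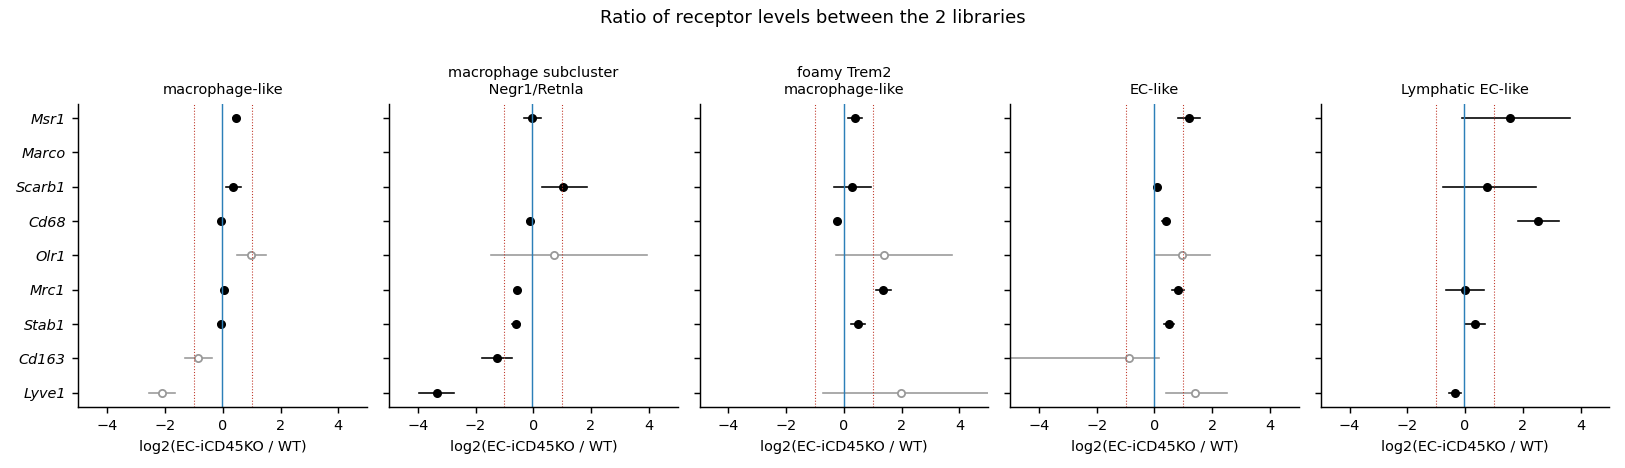
Log2 ratio of EC-iCD45KO over WT for each receptor in the cell classes and subtypes, with exact 95% intervals (counting error only, drawn up to 5 in either direction). Filled points have a mean of at least 5 CPM, open grey points less; dotted lines mark 2-fold and the blue line the median of all tested genes. Lyve1 (-3.33), Cd163 (-1.27), Stab1 (-0.60) and Mrc1 (-0.58) lie left of that median in the Negr1/Retnla subcluster.

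Across 40 values (20 named classes and subtypes in 2 libraries, which share depth and RNA source within a library), levels were compared as log2(CPM + 1) by Pearson correlation, as a description. Msr1 and Cd68 had a correlation of 0.88, Cd68 and Mrc1 0.79, Msr1 and Mrc1 0.75, Mrc1 and Stab1 0.60, and Stab1 and Lyve1 0.54. Mrc1 and Cd163 had 0.31, with the Negr1/Retnla subcluster not among the values. Among 7353 other genes, Msr1 was most like Lyz2 (0.955), Pla2g7 and C3ar1. Cd68 was most like Cd300c2 (0.964), Lgals3 and Fcer1g. The nearest genes to Mrc1 were Trf (0.905), Rab3il1 and Pid1. Olr1 was nearest to Ptgs2os2 (0.849), Treml4 and Slc16a3, and Lyve1 to Pard6g (0.923), Slc45a3 and Lypd6. Stab1 was nearest to Sptlc2 (0.833), Tnfrsf11a and Ubtd1. The best matches of Cd163 (Selenos, 0.658, then Hpgd and Ank) were weaker. Over these 40 values Cd163 and its matches were all highest in Chondrocyte-like cells. For Cd163 that value was 8.27 CPM in EC-iCD45KO, from only 5 UMIs.

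Within single macrophage-like cells thinned to 1000 UMIs, Stab1 was found with Mrc1 more often than without it. In WT 30.5% of the 429 Mrc1-positive cells held Stab1 (26.2 to 35.1), against 8.67% of the other cells (7.62 to 9.81). In EC-iCD45KO the shares were 17.5% and 10.5%. Cd163 was in 2.80% of the Mrc1-positive WT cells and in 0.0382% of the rest. Msr1 showed no such pairing with Mrc1, at 5.36% with it and 5.92% without it in WT, and 7.19% and 7.93% in EC-iCD45KO.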

How the data were processed

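Single-cell RNA from CD31-enriched aortic cells was deposited as 2 matrices of whole-number UMI counts per gene and barcode, 1 for WT and 1 for EC-iCD45KO. Per the submitters' processing notes they were made with Cell Ranger 7.1.0 on mm10; kit end and intron counting are not given in the sources used here. The receptors and lists were chosen with earlier results of these data known. The rule for named genes holds the 9 receptors, the other-receptor and partner lists, the 3 best-correlated genes of each receptor among genes reaching 50 CPM, and Ptprc. Of the lists the text gives counts and a few genes, picked after their values were seen, and for Marco no best-correlated genes.

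Scrublet's own threshold marked 4 of 39792 WT and 0 of 30254 EC-iCD45KO cells (0.0101% and 0.00%), so the top 10% of scores were removed instead. Cells were clustered with scanpy 1.11.5 and leidenalg 0.10.2 (2000 variable genes without receptors, lists and Ptprc, 30 components, 20 neighbours, resolution 1). Subtypes used resolution 0.6. Clusters were named from marker lists with score limits set after the data were seen. A subcluster whose 10 leading genes held more markers of another subtype than of its own stayed unnamed. Named classes hold 69.1% of WT and 84.8% of EC-iCD45KO cells. The fit was no model: counts were summed per class, divided by all UMIs of the class and compared as a ratio. A gene was tested if its mean was at least 5 CPM and called at 2-fold. A count of 0 was set to 3 counts. Intervals are exact at 95% (Poisson, conditional binomial, Clopper-Pearson). UMIs per 1000 C1q UMIs were compared between classes. The ratio step was tested on simulated data. Alternatives were other cell filters, doublet handling, resolutions, scalings (edgeR 4.0.16 TMM) and minimums. Gene positions are from the GENCODE annotation of GRCm38.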

Additional observations from a re-analysis of the deposited data

Results flagged for a closer look

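Of the 8 receptors that reached the minimum in at least 2 classes, subtypes or subclusters (all but Marco), 4 had log2 ratios of EC-iCD45KO over WT that pointed in opposite directions in different ones, each with a counting interval that did not include 0 and with at least 1 of the ratios past 2-fold. The same held for 21.7% of 13215 genes. Only classes, subtypes and subclusters in which the gene reached the minimum were counted. None of these differences between cell types was tested, because each cell type has 1 library per group. Stab1 had a log2 ratio of 2.33 in Schwann-like cells, from 4 UMIs in WT and 59 in EC-iCD45KO, and of -1.26 in an unnamed EC subcluster led by Ube2c and Prc1, from 11 and 25 UMIs. It also had 2.28 in Plasma-like, 1.46 in Dendritic-like and 1.13 in T/NK-like cells, and -0.60 in the Negr1/Retnla macrophage subcluster. Mrc1 had 1.95 in Schwann-like cells, from 10 and 114 UMIs, and -1.38 in the Ube2c/Prc1 subcluster, from 23 and 48 UMIs. Among macrophage subsets it had 1.36 in foamy Trem2 macrophage-like cells and -0.58 in the Negr1/Retnla subcluster. The summed C1q genes in Schwann-like cells were at 2334 CPM in WT and 6772 CPM in EC-iCD45KO, and their part in these ratios was not tested. Cd68 had 2.51 in lymphatic EC-like cells and -0.23 in foamy Trem2 macrophage-like cells. Scarb1 had 1.77 in Neutrophil-like cells, from 3 and 26 UMIs, and -0.48 in tip or sprouting EC-like cells.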

How the results depend on the processing

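The count of receptors past 2-fold in macrophage-like cells was 0. It was 1 (Lyve1, lower in EC-iCD45KO) when CPM left out mitochondrial, ribosomal protein and haemoglobin genes, at Leiden resolution 2, with no minimum and 0.5 CPM added, and without the shallowest macrophage-like cluster, a setting chosen after seeing the data. Lyve1 has a mean of 4.99 CPM there, next to the minimum. It stayed 0 under the stricter and looser cell filters, without doublet removal, with libraries centred, with TMM scaling and with averaged single-cell CPM. The count in EC-like cells was 1 (Msr1, higher). It was 0 without the low-depth subcluster led by Jchain and Igha, also chosen after seeing the data. With no minimum and 0.5 CPM added it was 3: Msr1 and Lyve1 higher, and Cd163 lower, from 4 UMIs in WT and 0 in EC-iCD45KO. The cause of these moves was not tested, other than that the minimum decides which genes enter. One log2 ratio whose counting interval left out 0 changed sign: that of Cd68 in macrophage-like cells was -0.06 and became 0.00, just above 0, with TMM scaling. Of 418 alternative log2 ratios for 62 results, 395 moved by less than the counting interval and 23 by more. Of 586 alternative levels 174 moved beyond the counting interval. At subtype resolution 1 the levels of Cd68 in monocyte-derived macrophage-like cells, of Scarb1 in arterial EC-like cells and of Mrc1 in arterial EC-like cells of EC-iCD45KO moved by over 1.5 times. With averaged single-cell CPM, Msr1 was at 38.1 CPM in arterial EC-like cells of EC-iCD45KO and 13.9 CPM in venous EC-like cells of WT. With doublets kept in, Cd68 was at 70.4 CPM in lymphatic EC-like cells of WT. Of 110 alternative shares 77 moved, since thinning sets the share. No paired analysis was possible because WT and EC-iCD45KO are single libraries. Depth limits Marco, Cd163, Olr1 and Lyve1 outside their main class, where a level rests on few UMIs.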
